A study of Mus musculus with 2 samples.

Results

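The genes described here are 35 genes of the p53 pathway, among the 27998 genes counted in mouse lung cells. They were taken as a named list, namely *Trp53* itself and genes known as transcriptional targets or regulators of p53, and *Cdkn1a*, the best known target, is left out of the list and given only beside it. All 35 symbols were found in the count matrices. The study was a scRNA-seq comparison of lungs of neonatal C57BL/6 mice kept from birth in room air (21% oxygen) or in hyperoxia (80% oxygen) and harvested at 2 weeks of age, on postnatal day 14. Cells of 8 mice were pooled into 1 library per group, so that no group had a replicate and no test between the groups was possible. Differences between mice and between libraries therefore cannot be told apart from the difference in oxygen.

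p53 is a transcription factor that accumulates and becomes active when DNA is damaged or the cell is otherwise stressed, mainly because its protein is no longer degraded. Mdm2, a ubiquitin ligase, and its partner Mdm4 hold p53 in check, and *Mdm2* is itself a p53 target. The targets of p53 stop the cell cycle, repair DNA, limit metabolism and growth, or promote apoptosis, and high oxygen is known to damage DNA through reactive oxygen species.

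There were 4234 barcodes in room air and 13223 in hyperoxia, with 39593888 and 111934936 UMIs (unique molecular identifiers, each standing for 1 captured RNA molecule). After filters on detected genes, mitochondrial UMIs and doublets, 3680 and 10472 cells remained, with medians of 8063.5 and 7231.5 UMIs. The libraries shared 17 barcode sequences. Clusters were named from marker genes, without use of the 35 genes, as 5 lineages and 23 cell types, and each name is given as "-like" because it was rebuilt from the counts. The 16 types with at least 50 cells in each library were described one by one. All 16 had every one of their markers detected in both libraries, by at least 1 UMI in the summed counts. Nearly all lineage markers were also detected in lineages other than their own, so this does not bear on the names. In several types the cells of the libraries lay in different sub-clusters. Among gCap-like cells (general capillary), 92.6% of room air cells and 84.7% of hyperoxia cells were in sub-clusters that were at least 90% of 1 library. The same shares were 96.7% and 97.4% for alveolar fibroblast-like cells, 86.6% and 71.2% for pericyte-like cells, 84.7% and 97.8% for alveolar macrophage-like cells, 12.6% and 75.8% for AT2-like cells (alveolar type 2), 55.5% and 47.5% for myofibroblast-like cells and 15.7% and 57.8% for aCap-like cells (aerocytes).

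A level is the sum of a gene's UMIs over the cells of a group, per 1000000 UMIs of that group (CPM). The ranges in parentheses are exact 95% intervals, Poisson for CPM and conditional for ratios, and cover counting error only. A gene was read in a group when its mean CPM over both libraries was at least 10, and was counted as higher or lower when the ratio of hyperoxia to room air was at least 1.5-fold.

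Sequences near the start of transcription are shown first, since the 35 genes are grouped by the factor said to control them. The RefSeq promoter table (GRCm38.p6, from 250 bases before to 50 bases after each start) held 26 of the 35 genes, with 40 promoters. They were searched for the p53 consensus of 2 adjoining decamers, which reads the same on both strands and has CNNG in the middle of each decamer. With these letters kept and at most 1 of the 20 bases off the consensus, a match was found in *Ccng1* and *Rps27l* and in 0.067% of all 32851 promoters. With at most 3 bases off, 7 of the 40 promoters, of 6 genes, and 1.38% of all promoters had a match. The 6 matches follow, with that of *Cdkn1a* for reference, each 5′ to 3′ on the strand of the gene and with the 20 matching bases in capitals.

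Ccng1: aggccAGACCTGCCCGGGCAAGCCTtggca
Rps27l: atggcGGGCTTGTTGAGACTTGTCCgggcg
Aen: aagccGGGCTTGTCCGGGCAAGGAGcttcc
Bbc3: cccgaCTGCAAGCCCCGACTTGTCCccagc
Sesn1: ccttcAAGCTTGTTTTTGCTGGCCTggtcc
Trp53: cggaaGGACTTGCCCTTACTTGTTAtggcg
Cdkn1a: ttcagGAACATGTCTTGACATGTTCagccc

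They lie at chr11:40755457-40755486 (minus strand, *Ccng1*), chr9:66946291-66946320 (plus, *Rps27l*, second start), chr7:78895932-78895961 (plus, *Aen*, second start), chr7:16309481-16309510 (plus, *Bbc3*, first of 3 starts), chr10:41887261-41887290 (plus, *Sesn1*, second start), chr11:69580279-69580308 (plus, *Trp53*) and chr17:29090923-29090952 (plus, *Cdkn1a*). The match begins 195 bases before the start in *Ccng1*, 117 in *Rps27l*, 121 in *Aen*, 97 in *Bbc3*, 173 in *Sesn1*, 75 in *Trp53* and 51 in *Cdkn1a*. *Ccng1*, *Rps27l* and *Aen* were among the genes higher in hyperoxia, and *Bbc3*, *Sesn1* and *Trp53* were not higher in any lineage. A match describes the letters only. Binding by p53 was not measured, and many sites of p53 lie outside this window.

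Among the lineages, the 35 genes were more often higher in hyperoxia in endothelial-like, stromal-like, epithelial-like and myeloid-like cells, while in lymphocyte-like cells their share was near that of all genes. In endothelial-like cells 15 of the 30 genes read were at least 1.5-fold higher in hyperoxia and 2 were lower, where 6.71% of all genes read were higher and 8.62% lower. In stromal-like cells 14 of 29 were higher and 0 were lower, against 5.32% and 5.18% of all genes. In epithelial-like cells 10 of 25 were higher and 1 was lower, against 6.46% and 10.4%. In myeloid-like cells 9 of 29 were higher and 3 were lower, against 4.71% and 8.77%. Only 1 of 25, *Plk2*, was higher in lymphocyte-like cells and 0 were lower, against 3.27% and 2.79%. The interval of the ratio excluded 1 for each of these 55 higher and lower values, and 37 of them stayed past the fold under every alternative processing of the counts (14 in stromal-like, 11 in endothelial-like, 8 in epithelial-like, 4 in myeloid-like and 0 in lymphocyte-like cells). *Gdf15* and *Phlda3* were too low to be read in lymphocyte-like cells. Their counts there were 8 and 71 UMIs for *Gdf15* (ratio 3.67, 1.76 to 8.83) and 11 and 92 UMIs for *Phlda3* (3.46, 1.85 to 7.17), while the summed level of 8 epithelial markers in the same cells was 349 and 944 CPM. The part of free RNA in these counts was not tested.

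The median log2 ratio of the genes read was 0.62 in endothelial-like cells, 0.57 in stromal-like, 0.30 in epithelial-like, 0.20 in myeloid-like and 0.16 in lymphocyte-like cells. Over all genes read, the medians were 0.01, 0.00, 0.05, -0.09 and 0.04. Of the 35 genes, 20 were higher in at least 1 lineage and 5 were lower in at least 1, with 2 genes in both sets. The share over all genes is not given for counts over several lineages, so these counts cannot be set against it. A further 11 genes were read but past the fold in no lineage, and *Pidd1*, the scaffold of the PIDDosome, was read in none, with 54 UMIs in room air and 162 in hyperoxia over the named cells.

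**Figure D1:**
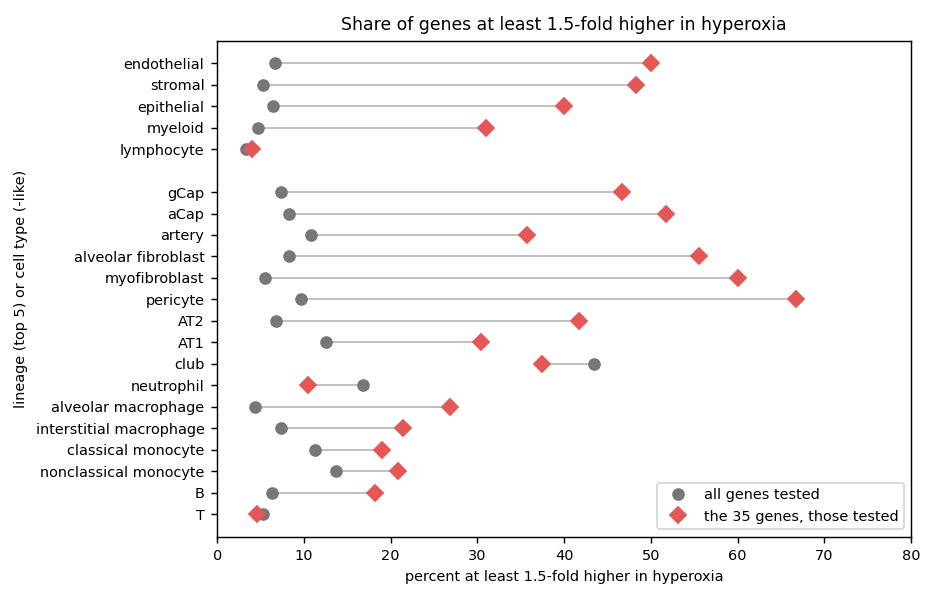
Percent of genes at least 1.5-fold higher in hyperoxia (x axis) in each of the 5 lineages and 16 cell types (y axis), for all genes read (grey circles) and for the 35 genes among them (red diamonds). The diamonds lie at 50, 48.3 and 40% for endothelial-like, stromal-like and epithelial-like cells, and beside or below the grey circle for lymphocyte-like, T-like, club-like and neutrophil-like cells.

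By cell type, the largest counts were in pericyte-like and myofibroblast-like cells. Pericyte-like cells had 20 of 30 genes higher (9.71% of all genes), myofibroblast-like cells 18 of 30 (5.48%) and alveolar fibroblast-like cells 15 of 27 (8.24%). The interval excluded 1 for 18 of the 20 in pericyte-like cells and for all 18 in myofibroblast-like cells. Among endothelial types, aCap-like cells (the thin gas-exchange capillary cells) had 15 of 29 higher (8.32%), gCap-like cells 14 of 30 (7.36%), with 5 lower (11% of all genes), and artery-like cells 10 of 28 (10.8%). The genes lower in gCap-like cells were *Mdm4*, *Apaf1*, *Xpc*, *Sesn1* and *Abhd4*, at log2 ratios of -0.98, -0.73, -0.98, -1.08 and -0.96. In AT2-like cells, which make surfactant, 10 of 24 were higher (6.82%), and in AT1-like cells, the flat lining cells of the alveolus, 7 of 23 (12.6%), although the interval excluded 1 for only 3 of these 7.

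Alveolar macrophage-like cells had 7 of 26 higher (4.4% of all genes) and 5 lower (23.3%), and interstitial macrophage-like cells 6 of 28 (7.39%). The genes lower in alveolar macrophage-like cells were *Trp53*, *Mdm4*, *Pmaip1*, *Ercc5* and *Sesn2*, at log2 ratios of -0.77, -0.95, -0.70, -0.68 and -0.78. Classical monocyte-like cells had 4 of 21 (11.3%), nonclassical monocyte-like cells 5 of 24 (13.7%) and neutrophil-like cells 2 of 19 (16.8%). Counting intervals are wide in these 3 types, and fewer of the genes were read. B-like cells had 4 of 22 higher (6.34%) and T-like cells 1 of 22 (5.24%). Club-like cells could not be read in this way, since 9 of 24 were higher where 43.4% of all genes were. This group had a median of 19250.5 UMIs per cell in room air and 2037.5 in hyperoxia, and its leading genes included the platelet genes *Ppbp* and *Pf4* and the cell cycle gene *Top2a* beside the club cell gene *Scgb1a1*. It supplied 41.4% of the epithelial-like UMIs in room air and 3.65% in hyperoxia, so AT2-like values are given beside the epithelial-like ones. Without club-like cells, 11 of 25 genes were higher in the epithelial-like cells. The share over all genes is not given for that setting, so this count cannot be set against it.

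**Figure D2:**
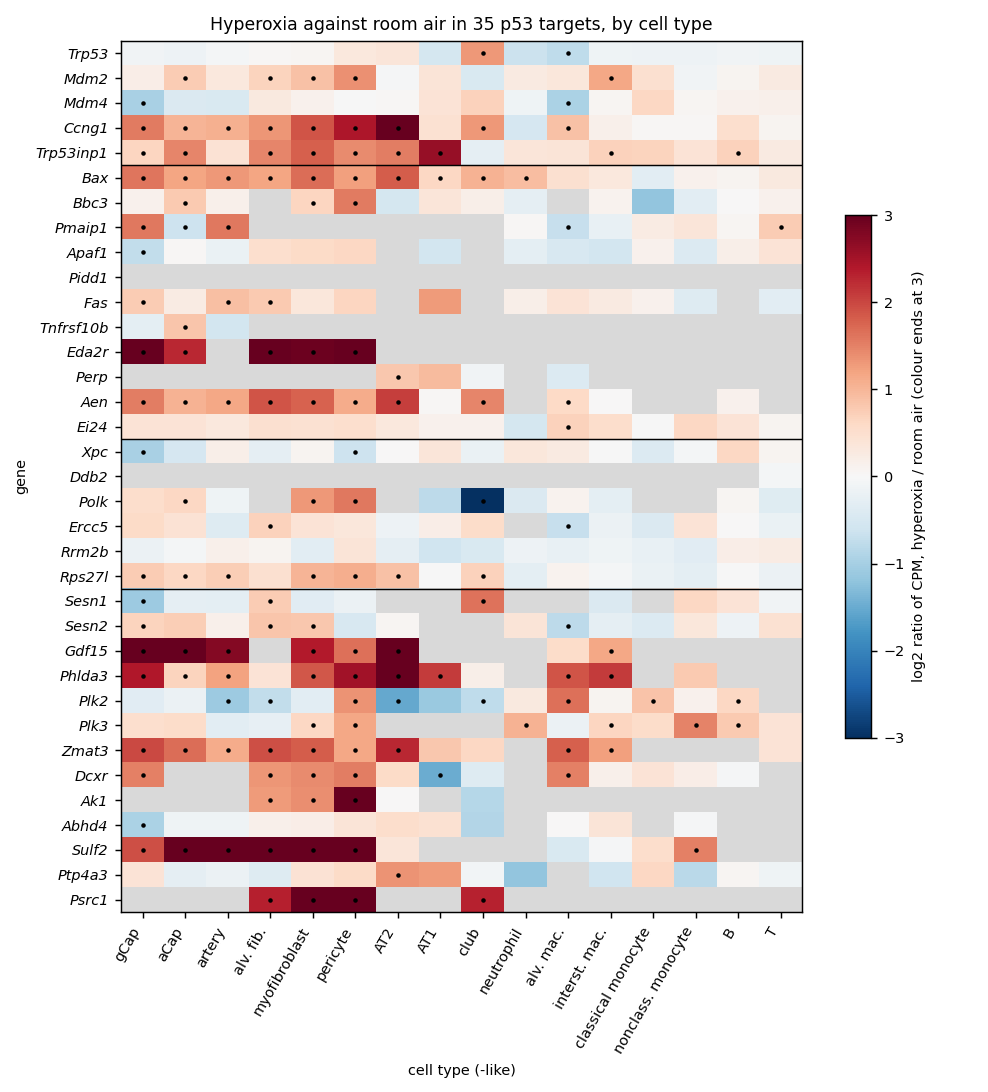
Log2 ratio of CPM, hyperoxia over room air (colour, red for higher in hyperoxia), for the 35 genes (rows, in 4 groups by role split by black lines) in 16 cell types (columns). Grey marks a mean CPM under 10, and a black dot a ratio of at least 1.5-fold in either direction with an interval that excludes 1, as for *Bax* in 10 of the 16 types.

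*Trp53*, which encodes p53, was not higher in any lineage. Its level was 125 CPM (117 to 133) under room air against 120 CPM (115 to 125) under hyperoxia in endothelial-like cells, and 91.1 CPM (85.6 to 96.8) and 87.1 CPM (83.7 to 90.5) in stromal-like cells. The intervals of both ratios include 1 (0.961, 0.892 to 1.04, and 0.956, 0.889 to 1.03). In myeloid-like cells it was 86.6 CPM (79.6 to 94) against 63.5 CPM (59.1 to 68.2), a ratio of 0.734 (0.657 to 0.819). That difference was short of 1.5-fold. *Trp53* was lower in alveolar macrophage-like cells, at 87.9 and 51.5 CPM (0.586, 0.485 to 0.708), a log2 ratio of -0.77 where the median over all genes was -0.25. These cells were 1 of 2 types with *Trp53* lower among the 16 read, and 1 type had it higher. Those counts of types disregard the interval. The epithelial-like and lymphocyte-like ratios were 0.82 (0.688 to 0.98) and 0.902 (0.836 to 0.974). By type, *Trp53* was highest in B-like cells in both libraries (240 CPM in room air, 222 CPM in hyperoxia), next in T-like cells (169 and 156 CPM, with intervals apart from those of B-like cells) and lowest in AT2-like cells (19.9 and 25.5 CPM), where the hyperoxia level was close to that of neutrophil-like cells (27.2 CPM).

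*Mdm2*, the ligase that degrades p53, was higher in stromal-like cells alone among the lineages. It stood at 35.6 CPM (32.2 to 39.2) under room air against 61.1 CPM (58.3 to 64.0) under hyperoxia in stromal-like cells, 1.72-fold higher (1.54 to 1.92). The endothelial-like ratio was 1.36 (1.23 to 1.51), the myeloid-like 1.27 (1.13 to 1.44) and the lymphocyte-like 1.12 (0.975 to 1.28). In epithelial-like cells it was 45.6 against 30.5 CPM, a ratio of 0.669 (0.568 to 0.789) just short of the fold, yet AT2-like cells stood at 27.5 and 27.0 CPM. Past the fold by type were pericyte-like (2.6-fold, 1.83 to 3.78), interstitial macrophage-like (2.24-fold, 1.65 to 3.07), myofibroblast-like (1.84-fold, 1.58 to 2.16), aCap-like (1.68-fold, 1.32 to 2.16) and alveolar fibroblast-like cells (1.59-fold, 1.31 to 1.94). *Mdm4*, the partner of Mdm2, was lower in endothelial-like cells, at 77.7 CPM (71.7 to 84.1) under room air against 46.3 CPM (43.4 to 49.3) under hyperoxia, a ratio of 0.596 (0.538 to 0.661). The log2 ratio of -0.75 came under the fold as a mean over cells (-0.58) and with cells thinned to 2000 UMIs (-0.55). Its ratios in the other lineages lay between 0.804 in myeloid-like and 1.2 in epithelial-like cells.

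**Figure D3:**
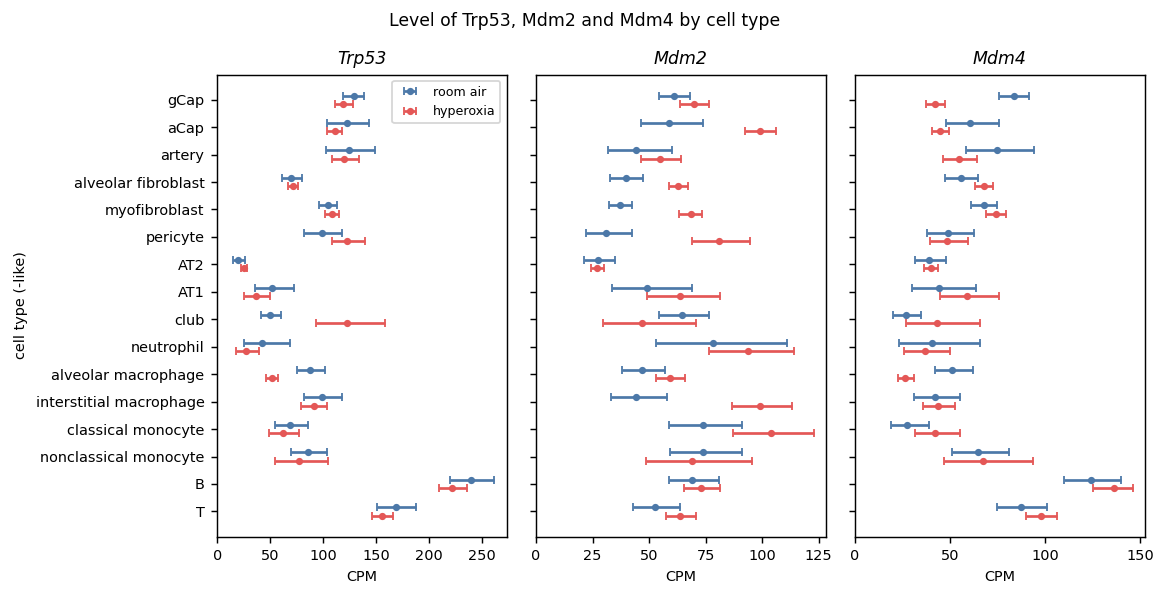
Level of *Trp53*, *Mdm2* and *Mdm4* (x axis, CPM) in 16 cell types (y axis) in room air (blue) and hyperoxia (red), with exact 95% Poisson intervals as bars. The intervals of *Trp53* overlap between the libraries in most types, with B-like cells highest. The ratio of *Mdm2* is past 1.5-fold in mesenchymal types and in aCap-like and interstitial macrophage-like cells.

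The other regulators were higher in most lineages. *Ccng1* encodes cyclin G1, a p53 target that acts on Mdm2 through the phosphatase PP2A, and it was 2.82-fold higher (2.39 to 3.35) in endothelial-like cells, from 20.6 to 58.1 CPM. In stromal-like cells it was 32.1 and 95.1 CPM (2.96-fold, 2.66 to 3.32) and in epithelial-like cells 25.6 and 127 CPM (4.94-fold, 4.14 to 5.95). AT2-like cells held 16.5 CPM under room air against 134 CPM under hyperoxia, 8.1-fold higher (5.9 to 11.4), whereas AT1-like cells held 55 and 75.6 CPM (1.37-fold, 0.914 to 2.1). The myeloid-like ratio was 1.67 (1.48 to 1.89). Alveolar macrophage-like cells were at 1.84-fold (1.54 to 2.2) and interstitial macrophage-like cells at 1.11-fold (0.826 to 1.51). Of the room air alveolar macrophage-like cells thinned to 2000 UMIs, 16.1% (10.5 to 23.1) had a *Ccng1* UMI. The hyperoxia share was 16.7% (12.7 to 21.3), so this share differed little at equal depth. Before thinning, the shares were 52 and 82.8%. In myeloid-like cells the log2 ratio of *Ccng1* was -0.01 in place of 0.74 with cells thinned to 2000 UMIs, 0.30 with the same makeup of cell types in both libraries and 0.40 as a mean over cells.

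*Trp53inp1*, a nuclear protein that promotes p53 phosphorylation, was 3.16-fold higher (2.93 to 3.41) in stromal-like cells, from 67.1 to 212 CPM. Endothelial-like cells held 43.7 and 85.6 CPM (1.96-fold, 1.74 to 2.21), epithelial-like cells 26.6 and 73.4 CPM (2.76-fold, 2.31 to 3.33) and myeloid-like cells 22.7 and 35.6 CPM (1.57-fold, 1.3 to 1.9). The myeloid-like value came under the fold in 2 of 11 alternatives, down to a log2 ratio of 0.42 with the same makeup of types. It was 1 of 4 genes past the fold in B-like cells, at 95.9 and 155 CPM (1.61-fold, 1.39 to 1.89), and in AT1-like cells it went from 6 UMIs (9.16 CPM) to 57 UMIs (55.9 CPM).

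Of the 11 apoptosis genes, 5 of the 9 read in endothelial-like cells were higher, 3 of 7 in stromal-like, 2 of 6 in epithelial-like, 1 of 8 in myeloid-like and 0 of 7 in lymphocyte-like cells (6.71, 5.32, 6.46, 4.71 and 3.27% of all genes). *Bax*, which encodes a pore-forming protein of the outer mitochondrial membrane, was 2.91-fold higher (2.74 to 3.1) in endothelial-like cells, at 149 CPM (140 to 157) under room air against 433 CPM (424 to 442) under hyperoxia. Stromal-like cells held 122 and 286 CPM (2.34-fold higher, 2.21 to 2.48) and epithelial-like cells 63.6 and 152 CPM (2.39-fold higher, 2.13 to 2.69). Myeloid-like cells held 162 and 213 CPM (1.31-fold, 1.22 to 1.41) and lymphocyte-like cells 94.7 and 111 CPM (1.17-fold, 1.05 to 1.31). The ratio was past the fold in all 6 endothelial and mesenchymal types read, from 2.27 in aCap-like and alveolar fibroblast-like cells to 3.2 in myofibroblast-like cells, and reached 3.54 (2.9 to 4.36) in AT2-like cells.

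*Eda2r*, which encodes a receptor of the TNF receptor family, was seen almost only in endothelial-like and stromal-like cells. It counted 14 UMIs (1.77 CPM) in room air and 502 UMIs (24.9 CPM) in hyperoxia in endothelial-like cells, 14.1-fold higher (8.3 to 25.9) and at rank 5 of the ratios of the 8396 genes read there. The log2 ratio of 3.81 moved to 2.81 with the same makeup of types, 3.15 as a mean over cells and 5.48 with thinned cells. In stromal-like cells it went from 43 UMIs (3.81 CPM) to 794 UMIs (27.5 CPM), 7.2-fold higher (5.3 to 10), a log2 ratio of 2.85 that became 2.07 with thinned cells. Pericyte-like cells had 0 UMIs in room air, read as a floor of 3 UMIs (2.34 CPM), and 41 UMIs in hyperoxia. The hyperoxia level was 8.95 times that floor, a value that leaves out counting error in hyperoxia. Epithelial-like, myeloid-like and lymphocyte-like cells had 0 UMIs in room air and 15, 7 and 11 UMIs in hyperoxia.

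*Aen*, an exonuclease gene induced by p53, stood at 15.4 and 42 CPM in endothelial-like cells (2.72-fold higher, 2.25 to 3.32) and at 17.3 and 47.3 CPM in stromal-like cells (2.74-fold, 2.35 to 3.2). It was also higher in epithelial-like cells, at 10.7 and 21.6 CPM (2.03-fold, 1.51 to 2.76), and in myeloid-like cells, at 11.7 and 18.2 CPM (1.56-fold, 1.2 to 2.06). As the mean of the CPM of single cells, the log2 ratio was -0.23 in epithelial-like cells in place of 1.02 and 0.16 in myeloid-like cells in place of 0.64. The myeloid-like value came under the fold in 5 of 11 alternatives. AT2-like cells had 12 UMIs in room air and 253 in hyperoxia (4.19-fold, 2.36 to 8.22).

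*Fas*, a death receptor, and *Pmaip1*, which encodes the BH3-only protein Noxa, were higher in endothelial-like cells alone among the lineages where they were read. *Fas* stood at 88.8 and 151 CPM (1.7-fold, 1.56 to 1.84), while its ratios elsewhere were 1.34 in stromal-like, 1.03 in myeloid-like and 0.992 in lymphocyte-like cells. *Pmaip1* stood at 15.7 and 27.4 CPM (1.75-fold, 1.43 to 2.14). With the same makeup of types both came under the fold, at log2 ratios of 0.50 in place of 0.76 for *Fas* and 0.37 in place of 0.80 for *Pmaip1*. The capillary types differed in direction, with *Pmaip1* 3-fold higher (2.27 to 4.02) in gCap-like cells and at a ratio of 0.651 (0.48 to 0.898) in aCap-like cells, and the difference between types was not tested. Below the level at which genes were read, *Pmaip1* had 9 and 78 UMIs in stromal-like cells (ratio 3.38, 1.69 to 7.67). It had 8 and 9 UMIs in epithelial-like cells (0.432, 0.148 to 1.29).

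The other apoptosis genes were not higher in any lineage where they were read. *Bbc3*, which encodes the BH3-only protein Puma, was at 36.4 and 44.1 CPM in endothelial-like cells (1.21-fold, 1.06 to 1.39) and was lower in myeloid-like cells, at 19.5 and 12.9 CPM (ratio 0.662, 0.52 to 0.844). The latter came under the fold in 3 of 11 alternatives, to a log2 ratio of -0.29 in place of -0.60 with the same makeup of types. *Apaf1*, the core of the apoptosome, had ratios from log2 -0.54 in endothelial-like to 0.29 in stromal-like cells, and *Ei24* from 0.32 in lymphocyte-like to 0.55 in myeloid-like cells, all under the fold. *Tnfrsf10b*, the mouse TRAIL receptor, was read only in endothelial-like cells (log2 ratio 0.05). *Perp*, a desmosome-associated membrane protein, was read in epithelial-like and myeloid-like cells (log2 ratios -0.02 and 0.17), was highest by type in alveolar macrophage-like cells (121 and 90.6 CPM) and had 0 and 8 UMIs in endothelial-like cells. Below the level at which genes were read, *Tnfrsf10b* had 18 and 159 UMIs in stromal-like cells (ratio 3.44, 2.11 to 5.96). *Perp* had 15 and 79 UMIs there (2.05, 1.17 to 3.84) and *Pidd1* 11 and 65 (2.3, 1.21 to 4.84). In epithelial-like cells *Tnfrsf10b* had 15 and 44 UMIs (1.13, 0.615 to 2.18) and *Pidd1* 9 and 17 (0.726, 0.306 to 1.85).

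Of the 6 genes of DNA repair and nucleotide supply, 1 was past the fold in any lineage. It was 1 of 5 read in endothelial-like, 1 of 4 in stromal-like and 1 of 4 in epithelial-like cells (6.71, 5.32 and 6.46% of all genes). In myeloid-like cells 0 of 5 were higher and in lymphocyte-like cells 0 of 6 (4.71 and 3.27%). *Rps27l*, a ribosomal protein-like gene induced by p53, was 1.73-fold higher (1.65 to 1.82) in endothelial-like cells, at 241 and 419 CPM, 1.65-fold (1.59 to 1.72) in stromal-like and 1.52-fold (1.42 to 1.61) in epithelial-like cells. The epithelial-like value, at the limit of the fold, came under it in 3 of 12 alternatives (log2 ratio 0.49 in place of 0.60 as a mean over cells). Its ratios were 1.16 (1.1 to 1.22) in myeloid-like and 0.942 (0.848 to 1.05) in lymphocyte-like cells. Reads of *Rps27l* and its near copy *Rps27* could be split by the authors' counting, so its level is uncertain. *Xpc* and *Ddb2*, which recognise damaged bases in nucleotide excision repair, *Ercc5*, an endonuclease of the same pathway, *Polk*, a translesion polymerase, and *Rrm2b*, a subunit of ribonucleotide reductase, were past the fold in no lineage. Their log2 ratios, where read, ran from -0.53 (*Xpc*, endothelial-like) to 0.57 (*Polk*, endothelial-like, and *Ercc5*, stromal-like), and *Ddb2* was read only in lymphocyte-like cells (0.03). Just under the fold, with intervals that exclude 1, were *Polk* (1.49, 1.22 to 1.82) and *Xpc* (0.695, 0.588 to 0.823) in endothelial-like cells and *Ercc5* (1.48, 1.33 to 1.65) in stromal-like cells. Below the level at which genes were read, *Polk* stood at 6.3 and 11.7 CPM in stromal-like cells (ratio 1.85, 1.43 to 2.43). In epithelial-like cells it stood at 11.1 and 8.13 CPM (0.735, 0.529 to 1.03).

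Of the 13 genes of stress, metabolism and growth, 7 of the 11 read in endothelial-like cells were higher, 7 of 13 in stromal-like, 5 of 10 in epithelial-like, 6 of 11 in myeloid-like and 1 of 7 in lymphocyte-like cells (6.71, 5.32, 6.46, 4.71 and 3.27% of all genes). *Gdf15*, a secreted stress cytokine of the TGF-β family, had, with *Eda2r*, one of the largest ratios of the 35 genes in endothelial-like cells, and the intervals of both overlap. It counted 40 UMIs (5.05 CPM, 3.61 to 6.88) in room air and 1844 UMIs (91.4 CPM, 87.2 to 95.6) in hyperoxia, 18.1-fold higher (13.2 to 25.4) and at rank 3 of the ratios of all genes read. The epithelial-like level went from 3.88 to 41.2 CPM (10.6-fold, 6.8 to 17.5, with a log2 ratio of 3.41, or 4.62 without dividing cells) and the stromal-like level from 9.67 to 30.9 CPM (3.2-fold, 2.62 to 3.94). In myeloid-like cells it was high in both libraries, at 107 and 238 CPM (2.23-fold, 2.05 to 2.42).

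By type, *Gdf15* was highest in alveolar macrophage-like cells in both libraries, at 249 and 361 CPM (1.45-fold, 1.32 to 1.6), and next in interstitial macrophage-like cells, at 142 and 318 CPM. It went from 7.16 to 122 CPM in aCap-like and from 3.88 to 66.1 CPM in gCap-like cells, 17-fold higher in both, and from 5 UMIs (2.11 CPM) to 544 UMIs (45.7 CPM) in AT2-like cells. In endothelial-like cells, markers of alveolar macrophages stood at 0.377% of their own level in hyperoxia (median of 6 markers), which corresponds to 1.36 CPM of *Gdf15* where 91.4 CPM was measured. In lymphocyte-like cells the same sum gives 1.18 CPM, beside 6.1 CPM measured.

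*Phlda3*, which encodes a repressor of the kinase Akt, was 3.58-fold higher (3.3 to 3.89) in endothelial-like cells, at 83.4 and 299 CPM. Stromal-like cells held 120 and 264 CPM (2.2-fold, 2.08 to 2.33), epithelial-like cells 14.7 and 48.7 CPM (3.3-fold, 2.6 to 4.24) and myeloid-like cells 11.1 and 49.9 CPM (4.51-fold, 3.53 to 5.84). The log2 ratio moved from 1.84 to 1.10 in endothelial-like cells with the same makeup of types, from 1.72 to 4.63 in epithelial-like cells without club-like cells and from 2.17 to 1.38 in myeloid-like cells with thinned cells, and stayed past the fold in these lineages. The types differed in where they began. AT2-like cells went from 3 UMIs (1.27 CPM) to 615 UMIs (51.7 CPM), a ratio of 40.7 (13.9 to 198), and gCap-like cells from 42.5 to 226 CPM (5.31-fold, 4.61 to 6.15). In aCap-like and alveolar fibroblast-like cells, both at about the same level in room air (266 and 265 CPM), the ratios were 1.59 (1.42 to 1.78) and 1.34 (1.24 to 1.44).

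*Zmat3*, an RNA-binding zinc finger protein, was higher in all lineages other than lymphocyte-like cells. Endothelial-like cells held 17.7 and 69.8 CPM (3.95-fold, 3.31 to 4.73), stromal-like cells 29 and 89.4 CPM (3.08-fold, 2.75 to 3.47), epithelial-like cells 9.9 and 45.4 CPM (4.59-fold, 3.45 to 6.23) and myeloid-like cells 9.21 and 31.9 CPM (3.46-fold, 2.63 to 4.62). The lymphocyte-like levels were 9.14 and 13.2 CPM (1.45-fold, 1.03 to 2.07). Of the 12 types in which it was read, 11 were past the fold, AT1-like and club-like cells among them with intervals that include 1.

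**Figure D4:**
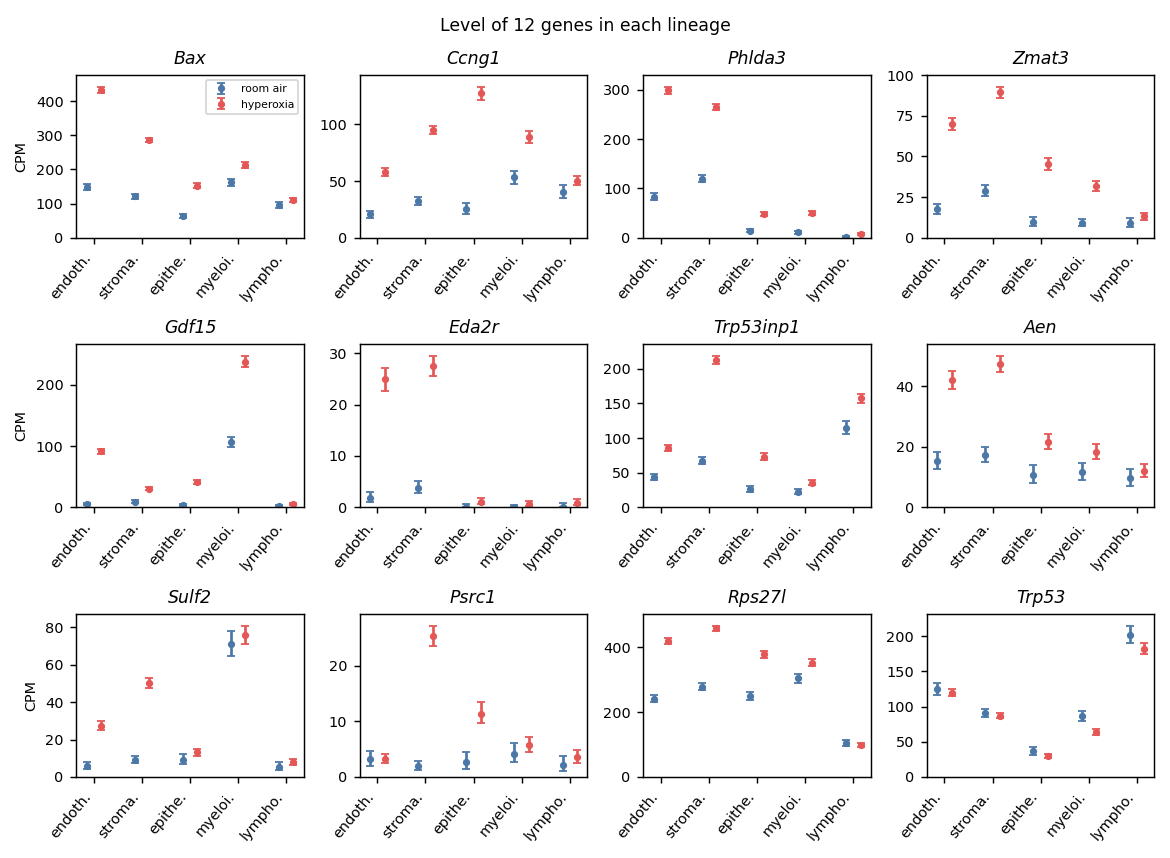
Level (y axis, CPM, each panel from 0) of 12 of the 35 genes in the 5 lineages (x axis) in room air (blue) and hyperoxia (red), with exact 95% Poisson intervals as bars. *Bax*, *Phlda3* and *Zmat3* are apart between the libraries in endothelial-like, stromal-like and epithelial-like cells, and *Eda2r* is near 0 outside endothelial-like and stromal-like cells. The bars of *Trp53* overlap between the libraries in endothelial-like and stromal-like cells and are apart in myeloid-like cells, where room air is higher.

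*Sulf2*, *Psrc1* and *Ak1* were higher in stromal-like cells. *Sulf2*, which trims sulfate from heparan sulfate outside the cell, was 5.5-fold higher (4.5 to 6.78) in stromal-like cells, from 9.13 to 50.2 CPM, and 4.72-fold higher (3.49 to 6.52) in endothelial-like cells, from 5.81 to 27.4 CPM. The stromal-like log2 ratio moved from 2.46 to 4.37 with the same makeup of types, and the endothelial-like one from 2.24 to 3.03 with thinned cells. Its myeloid-like level, 71.1 and 75.7 CPM, was above both in each library and differed little (1.06-fold, 0.951 to 1.19). *Psrc1*, a microtubule-associated protein, went from 22 UMIs (1.95 CPM) to 732 UMIs (25.3 CPM) in stromal-like cells, 13-fold higher (8.51 to 20.8), and from 3 to 339 UMIs in myofibroblast-like cells. Its stromal-like log2 ratio of 3.70 moved to 5.23 with thinned cells and to 3.07 with no doublets removed. Below the level at which genes were read, it stood at 3.16 and 3.17 CPM in endothelial-like cells and at 2.72 and 11.4 CPM in epithelial-like cells (ratio 4.2, 2.43 to 7.86). *Ak1*, adenylate kinase 1, was 2.48-fold higher (2.22 to 2.78) in stromal-like cells, at 32.4 and 80.4 CPM, and level in epithelial-like cells (1.06-fold, 0.861 to 1.31).

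*Dcxr*, a carbonyl reductase, stood at 6.57 and 16.6 CPM in endothelial-like cells (2.53-fold higher, 1.88 to 3.45), 12.2 and 35.1 CPM in stromal-like cells (2.87-fold, 2.4 to 3.45) and 22.6 and 39.5 CPM in myeloid-like cells (1.75-fold, 1.45 to 2.12). Its level was largest in epithelial-like cells (268 and 329 CPM, 1.23-fold, 1.16 to 1.31). AT2 markers stood at 0.271% of their AT2-like level in endothelial-like cells of the hyperoxia library, which corresponds to 0.969 CPM of *Dcxr*. *Ptp4a3*, a tyrosine phosphatase, was higher in endothelial-like cells, at 127 and 200 CPM (1.58-fold, 1.47 to 1.69), and in epithelial-like cells, at 16.1 and 28.5 CPM (1.77-fold, 1.39 to 2.27). It was lower in myeloid-like cells, at 21.6 and 13.1 CPM (ratio 0.604, 0.478 to 0.763). With the same makeup of cell types in both libraries its endothelial-like log2 ratio was -0.18 in place of 0.66, and gCap-like, aCap-like and artery-like cells were each under the fold. The myeloid-like log2 ratio of -0.73 became -0.37 with no doublets removed, and the epithelial-like one of 0.82 became 1.44 without club-like cells.

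The stress sensors and polo-like kinases had no common direction. *Sesn2*, a sestrin that restrains mTORC1, was 1.59-fold higher (1.24 to 2.05) in endothelial-like cells, at 10.4 and 16.5 CPM, and 1.56-fold (1.17 to 2.1) in epithelial-like cells. The epithelial-like value came under the fold in 8 of 12 alternatives, to a log2 ratio of 0.21 in place of 0.64 with the same makeup of types, and the endothelial-like value in 1 of 11, to 0.51 in place of 0.67 with thinned cells. Its relative *Sesn1* was lower in endothelial-like cells, at 20.7 and 13.4 CPM (ratio 0.646, 0.53 to 0.789), and in myeloid-like cells, at 13.4 and 8.66 CPM (0.648, 0.483 to 0.872). These came under the fold in 2 and 6 of 11 alternatives, to log2 ratios of -0.58 and -0.46 in place of -0.63. *Plk3* was 1.55-fold higher (1.4 to 1.73) in myeloid-like cells, at 74.5 and 116 CPM, and came under the fold in 3 of 11 alternatives (log2 ratio 0.46 in place of 0.64 under the stricter cell filter). *Plk2* was lower in epithelial-like cells, at 49.1 and 17.5 CPM (ratio 0.355, 0.296 to 0.426), and the same in AT2-like cells, at 50.7 and 17.5 CPM (0.344, 0.274 to 0.435). *Plk2* was higher in myeloid-like cells, at 30.4 and 46 CPM (1.51-fold, 1.29 to 1.79), and in lymphocyte-like cells, at 18.5 and 29 CPM (1.57-fold, 1.24 to 2.01). With thinned cells neither stayed past the fold, at log2 ratios of 0.35 in place of 0.60 and 0.25 in place of 0.65, and they came under it in 6 and 2 of 11 alternatives. By level it was largest in endothelial-like cells (533 and 424 CPM), with a ratio of 0.796 (0.767 to 0.826). *Abhd4*, a lipid hydrolase gene, was past the fold in no lineage (log2 ratios from -0.38 to 0.36).

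The share of cells with a UMI was compared after each cell was thinned to 2000 UMIs, with shallower cells left out. *Bax* was then found in 22.6% of gCap-like cells in room air and 51.9% in hyperoxia (62 and 86.7% before thinning), in 16.3 and 44.7% of myofibroblast-like cells and in 9.03 and 22.5% of AT2-like cells. In B-like cells the shares were 15.7 and 18.2%. *Phlda3* was found in 5.9 and 32.5% of gCap-like cells and in 0 of the thinned AT2-like cells in room air against 9.57% in hyperoxia. *Gdf15* was found in 1.01 and 7.88% of gCap-like cells, and *Eda2r* in 0 and 3.4%. In B-like cells, taken for comparison, *Phlda3* was found in 0 and 1.81%, *Gdf15* was found in 0.785 and 1.57% and *Eda2r* in 0 and 0.329%. Leading genes of small B-like sub-clusters included the endothelial marker *Cldn5* (6 cells in room air, 35 in hyperoxia). Another such gene was the alveolar fibroblast marker *Limch1* (2 and 24 cells). The part of these cells in the B-like shares was not tested. Median depths before thinning were 7806 and 9068 UMIs for gCap-like and 4507.5 and 2926 for B-like cells. *Gdf15* and *Eda2r* were thus found in a minority of cells at this depth, which does not show that the other cells lacked them.

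**Figure D5:**
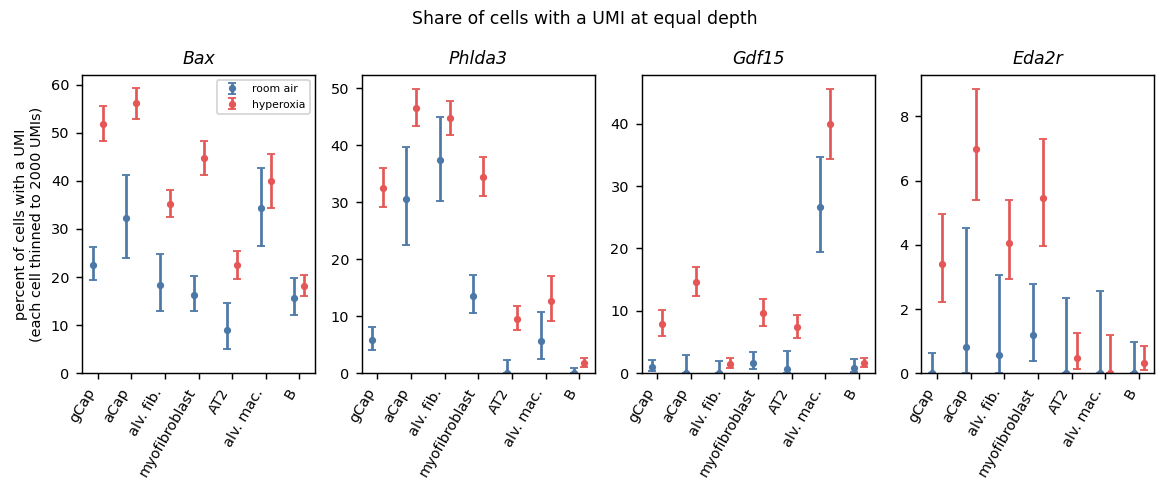
Percent of cells with at least 1 UMI of *Bax*, *Phlda3*, *Gdf15* or *Eda2r* (y axis) in 7 cell types (x axis) in room air (blue) and hyperoxia (red), each cell thinned to 2000 UMIs, with exact 95% Clopper-Pearson intervals as bars. The shares of *Bax* in gCap-like cells are 22.6 and 51.9%, and those in B-like cells, 15.7 and 18.2%, overlap.

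*Cdkn1a*, the cell cycle inhibitor p21 left out of the list, had larger ratios than most of the 35 genes. It stood at 171 and 1239 CPM in endothelial-like cells (log2 ratio 2.86), 47.9 and 731 CPM in stromal-like (3.93), 82.9 and 329 CPM in epithelial-like (1.99), 402 and 601 CPM in myeloid-like (0.58) and 53.6 and 92.9 CPM in lymphocyte-like cells (0.79). By type it ran from a log2 ratio of 0.07 in neutrophil-like cells to 5.23 in pericyte-like cells. In pericyte-like cells 20 of the 30 genes read were higher (9.71% of all genes), 18 of them with an interval that excluded 1. In myofibroblast-like cells 18 of 30 were higher (5.48%), all with such an interval.

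Among other p53 targets, *Cd82* and *Trp53i13* were higher in endothelial-like cells (log2 ratios 1.06 and 0.61), beside *Cdkn1a*. In the same cells *Tap1* (98.7 and 42.9 CPM), *Trp53i11*, *Ccng2* and *Pml* were lower (log2 ratios -1.09, -0.97 and -0.62 for the last 3). In stromal-like cells *Cd82*, *Btg2* and *Dram1* were higher (1.47, 0.76 and 0.75) and 0 of the 15 targets read were lower (5.18% of all genes). Epithelial-like cells had 2 of 11 higher (*Cdkn1a* and *Dram1*, 0.59), against 6.46% of all genes. Lymphocyte-like cells had 2 of 12 (*Cdkn1a* and *Thbs1*, 0.91), against 3.27%. *Tap1* was lower in myeloid-like cells (-0.86).

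Of the 20 upstream genes found, kinases and cofactors that act on p53, few were past the fold. None of the 17 read was higher in endothelial-like or stromal-like cells, where 6.71 and 5.32% of all genes were. *H2afx*, a histone gene that is also high in dividing cells, was lower in endothelial-like (-0.81) and lymphocyte-like cells (-1.02). *Atm* and *Ep300* were higher in epithelial-like cells (0.87 and 0.59). In myeloid-like cells all 15 genes read had ratios below 1, at a median log2 ratio of -0.24 beside -0.09 over all genes. Of these, 0 were past the fold, where 4.71% of all genes were higher and 8.77% lower. In alveolar macrophage-like cells 5 of 16 were lower, against 23.3% of all genes (median -0.49, beside -0.25). Of 18 genes of the BCL-2 family and caspases, *Bcl2l1*, which encodes the survival protein Bcl-xL, was higher in endothelial-like (0.97) and stromal-like cells (0.79). In endothelial-like cells *Bcl2l11*, *Bik* and *Casp8*, which promote apoptosis, were lower (-1.37, -0.80 and -0.72). In myeloid-like cells *Bcl2a1b* was higher (0.61) and *Bcl2* and *Bak1* were lower (-0.90 and -0.63). The p53 relatives *Trp63* and *Trp73* were below 10 CPM on average in all 5 lineages.

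Other lists moved beside these genes. The summed level of 11 cell cycle genes was lower in hyperoxia in endothelial-like (512 and 96 CPM), myeloid-like (544 and 189), lymphocyte-like (867 and 459) and epithelial-like cells (137 and 62.6), and in alveolar macrophage-like cells it was 1039 and 96.7 CPM. In stromal-like cells, where 14 genes were higher, it was 29.6 and 25.8 CPM, and in pericyte-like cells 24.1 and 50 CPM (2.07-fold, 1.37 to 3.21). With cells of at least 2 cell cycle UMIs left out, 16 genes were higher in endothelial-like and 14 in stromal-like cells. These recounts are given without the share over all genes in that setting. The summed level of 12 genes induced by tissue dissociation was 1.42-fold higher in stromal-like cells, 1.14-fold in endothelial-like and 1.29-fold in lymphocyte-like cells, 0.979-fold in myeloid-like and 0.481-fold in epithelial-like cells. It was 1.67-fold higher in alveolar fibroblast-like cells, with 10 of the 12 genes past the fold, 1.37-fold in pericyte-like and 1.22-fold in myofibroblast-like cells, and 0.997-fold in AT2-like cells, where *Plk2* was lower. That of 10 genes of the integrated stress response, through which *Gdf15* and *Sesn2* can also be induced, ran from 1.01-fold in endothelial-like to 1.34-fold in myeloid-like cells, and was 1.56-fold (1.42 to 1.71) in pericyte-like cells. The summed level of 5 red cell genes was 20.2 and 291 CPM in epithelial-like cells, with 20.6 and 7731 CPM in club-like cells, and 42.6 and 587 CPM in lymphocyte-like cells. The 8 epithelial markers stood at 304 and 456 CPM in endothelial-like cells and 474 and 691 CPM in myeloid-like cells, and 7 of them at 204 and 429 CPM in stromal-like cells. The part of these lists in the values above was not tested.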

How the data were processed

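Raw UMI counts per gene and barcode had been produced by the authors with Cell Ranger from droplet scRNA-seq, and the deposited counts were used as they were. Version 3.1.0 stands in the header of the matrices, Cell Ranger 2.1.1 in the submitters' processing notes and 6.1.1 in the extract protocol. Barcodes under 500 genes or over 20% mitochondrial UMIs were removed. Simulated doublets (2 per cell) ranked the cells, and the top ones were dropped at 0.8% per 1000 barcodes (129 in room air, 1239 in hyperoxia). Counts scaled to 10000 per cell, 2000 variable genes, 30 principal components and 20 neighbours entered Leiden clustering at resolution 1 (leidenalg 0.10.2, igraph 0.11.9, scikit-learn 1.9.0, numpy 2.4.6, scipy 1.17.1), without the reported genes. Clusters were named from markers, by a rule adjusted after clusters had been seen, and 199 and 619 cells stayed unnamed. The 35 genes and all lists were chosen with earlier results of these data known. Genes given in full were those past 1.5-fold with an interval excluding 1 in at least 1 lineage, and *Trp53*, *Mdm2* and *Mdm4*. Others are given by counts and ranges, and genes of other lists by name when past the fold. The ratios and intervals were tested on simulated data. Alternatives changed scaling, filters, doublets, resolution, weighting, depth and makeup. A count of 0 was read as allowing 3. A result on the other p53 targets is not reported here, so that their counts of higher genes are left out for 3 lineages.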

Additional observations from a re-analysis of the deposited data

Results flagged for a closer look

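*Plk2* and *Ptp4a3* were past 1.5-fold in opposite directions in different lineages, with intervals that excluded 1. The log2 ratio of *Plk2* was -1.49 in epithelial-like cells, 0.60 in myeloid-like cells and 0.65 in lymphocyte-like cells. That of *Ptp4a3* was 0.66 in endothelial-like and 0.82 in epithelial-like cells, and -0.73 in myeloid-like cells. With cells thinned to 2000 UMIs *Plk2* was at 0.35 in myeloid-like and 0.25 in lymphocyte-like cells, under the fold, and with the same makeup of types *Ptp4a3* was at -0.18 in endothelial-like cells. With 1 library per group the difference between lineages was not tested.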

How the results depend on the processing

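With 1 library per group no replicate could be left out. No paired analysis was possible because each group had 1 library. Of 152 recomputed counts 121 stayed within 1.5 times, of 76 medians 73 within the counting interval, and of 1140 log2 ratios of the genes given in full 1000 stayed within their interval. In 34 the sign changed, mostly for genes not past the fold, and in 3 it changed for a gene past it, namely *Aen* in epithelial-like cells as a mean over cells (-0.23), *Ccng1* in myeloid-like cells thinned to 2000 UMIs (-0.01) and *Ptp4a3* in endothelial-like cells at the same makeup of types (-0.18).

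Counts of higher genes changed as follows. Except where stated, the share over all genes is not given beside the recounts of higher or lower genes, so they cannot be set against it. A mean CPM of at least 50 left 6 in endothelial-like, 7 in stromal-like, 3 in epithelial-like, 3 in myeloid-like and 0 in lymphocyte-like cells, because fewer genes were read. A 2-fold limit left 9 in endothelial-like, 3 in myeloid-like and 0 in lymphocyte-like cells. The same makeup of types left 5 in myeloid-like cells. In lymphocyte-like cells the count was 0 with double the doublets removed, 2 at a mean CPM of at least 5 and 5 with any gene of at least 1 UMI in each library, where 14% of all genes were higher.

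Counts of lower genes, all small, changed more often. In endothelial-like cells the count was 1 with TMM factors, with thinned cells and at a mean CPM of at least 50, and 0 as a mean over cells and at 2-fold. In myeloid-like cells it was 1 with TMM factors, with no doublets removed and at the same makeup, and 0 at a mean CPM of at least 50 and at 2-fold. In epithelial-like cells it was 2 under the stricter cell filter, with thinned cells, at resolution 0.5 and with any gene of at least 1 UMI in each library, 3 as a mean over cells and without dividing cells, and 0 at a mean CPM of at least 50. In lymphocyte-like cells it was 1 with thinned cells and with any gene of at least 1 UMI. The stromal-like median was 0.76 with thinned cells, 0.93 at a mean CPM of at least 50 and 0.78 with any gene of at least 1 UMI. Apart from the CPM limits and the 2-fold limit, the causes were not tested. The epithelial-like values without club-like cells were added after the data had been seen. Room air set the precision, with 4813843 UMIs in lymphocyte-like cells, where genes under 10 CPM rest on fewer than 50 UMIs.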
